A study of Mus musculus and Rattus norvegicus with 96 samples.

Results

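Transcripts of albumin and 9 apolipoproteins (Alb, Apoa1, Apoa2, Apoa4, Apoa5, Apob, Apoc1, Apoc3, Apoe and Apoh) were followed through frozen and paraffin-embedded mouse liver. These 10 genes are a family chosen by name, with earlier results of these data known, from the 24543 genes listed in the count table of the mouse study. All 10 passed the filter on low counts, and none fell below 853 counts in any of the 48 libraries. The livers came from 12 male B6C3F1 mice that were 10 to 11 weeks old, of which 6 drank water with 600 ppm phenobarbital (PB) for 7 days and 6 drank plain water as vehicle control (Con). Each liver was divided into 4 preparations, which gave 8 groups of n = 6. Frozen tissue (FR) was the reference. FR > OH was frozen and then fixed in 70% ethanol, FR > FFPE was frozen before it went into neutral buffered formalin (10%) for 18 to 24 h, and FFPE was placed in the same formalin without freezing. The last 3 preparations were embedded in paraffin. Their RNA came from 2 curls per block with an FFPE kit, whereas FR RNA was extracted with RNAzol. Per the study's methods, libraries of FFPE samples were also made with shorter fragmentation and heating. The methods do not name the embedded preparations that this covered. Embedding, extraction and this step of library preparation cannot be told apart in any comparison with FR. The study asked how formalin changes RNA profiles, whether freezing beforehand matters, and whether a PB response can still be read in fixed tissue. The same genes were then looked up in rat liver, measured with probes.

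Hepatocytes make most of the proteins of plasma. Albumin carries fatty acids and drugs and holds water in the circulation. Apolipoproteins wrap lipids into particles. Apob is the structural protein of very low density lipoprotein, Apoa1 and Apoa2 are the main proteins of high density lipoprotein, Apoe is a ligand for receptors that clear particles, and the small Apoc1 and Apoc3 proteins slow that clearance. Apoa4 travels on several kinds of particles, Apoa5 aids the breakdown of triglyceride, and Apoh (beta2-glycoprotein I) binds phospholipids.

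The transcripts of the members differ widely in length. In the GENCODE M21 annotation of GRCm38 the principal transcripts measured 518 nt for Apoa2, 526 nt for Apoc3, 532 nt for Apoc1, 1035 nt for Apoa1, 1190 nt for Apoh, 1408 nt for Apoe, 1815 nt for Apoa4, 2034 nt for Alb, 2515 nt for Apoa5 and 13934 nt for Apob. Apob is 26.9 times as long as Apoa2. The coding sequences of the 3 shortest members are shown, without the stop codon (and, for Apoa2, without its last codons) and with the start codon in capitals, because they make the scale visible. Together the 3 coding sequences hold 867 bases, or 6.42% of the 13515 coding bases of Apob. They were copied from the annotated principal transcripts of Apoa2 (gene at chr1:171225054-171226379, plus strand), Apoc3 (gene at chr9:46232933-46235636, minus strand) and Apoc1 (gene at chr7:19689481-19692660, minus strand).
Apoa2: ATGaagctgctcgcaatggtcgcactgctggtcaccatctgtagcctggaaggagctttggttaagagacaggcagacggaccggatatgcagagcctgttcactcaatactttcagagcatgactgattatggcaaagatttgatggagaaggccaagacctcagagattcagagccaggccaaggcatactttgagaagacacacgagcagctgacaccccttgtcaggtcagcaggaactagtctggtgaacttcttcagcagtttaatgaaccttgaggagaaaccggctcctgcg
Apoc3: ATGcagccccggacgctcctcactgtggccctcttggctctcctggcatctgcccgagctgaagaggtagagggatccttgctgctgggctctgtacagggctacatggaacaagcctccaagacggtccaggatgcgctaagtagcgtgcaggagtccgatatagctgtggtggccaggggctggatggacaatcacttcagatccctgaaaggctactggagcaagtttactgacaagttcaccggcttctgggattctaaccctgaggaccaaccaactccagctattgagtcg
Apoc1: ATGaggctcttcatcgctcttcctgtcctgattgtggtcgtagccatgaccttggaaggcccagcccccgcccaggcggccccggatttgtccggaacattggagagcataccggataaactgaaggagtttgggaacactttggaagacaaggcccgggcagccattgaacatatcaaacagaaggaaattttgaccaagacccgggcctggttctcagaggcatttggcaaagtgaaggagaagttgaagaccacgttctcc
Apoa1, Apoc3, Apoa4 and Apoa5 lie side by side within 43.3 kb of chromosome 9 (chr9:46228630-46271921 in RefSeq on GRCm38). Apoc1 and Apoe are neighbours on chromosome 7, and Alb (chromosome 5), Apoa2 (chromosome 1), Apob (chromosome 12) and Apoh (chromosome 11) lie apart.

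Libraries held 11737338 to 13702672 counts on genes in FR and 4952797 to 6760422 in FFPE, with FR > FFPE (5534973 to 10681783) and FR > OH (8167321 to 11539022) between them. Counts on genes were 46.6% to 51.8% of reads in FR and 21.4% to 27.5% in FFPE. Levels are given as CPM of the total on genes. On this scale the median log2 fold change of the 13370 genes tested vs. FR was 0.32 for FFPE and 0.34 for FR > FFPE, and FR > OH had 0.18, so each member's change is also given relative to that median. The FFPE median was 0.04 with TMM scaling and -0.63 with total reads as library size. The 7084 higher and 2313 lower calls in FFPE became 4561 and 4185 with TMM scaling and 877 and 9451 with total reads. A number after L in the library titles, which the labels do not explain, was 1 for all FFPE Con libraries and 2 for all FR Con libraries. It was 3 for all FR > FFPE Con, 4 for all FR > FFPE PB and 5 for all FR > OH PB libraries. Within a treatment, preparations shared no L number except FR and FFPE in PB mice. Hepatocyte markers were present in every library. Per the study's methods, FR, FR > OH and FR > FFPE were portions of the same frozen sample, whereas FFPE was a separate piece of the liver. In bulk tissue fewer hepatocytes and less RNA per hepatocyte cannot be told apart.

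In frozen liver the 10 members took 10.3% ± 1.24 (SD, n = 6) of all counts on genes in Con mice and 8.30% ± 1.56 (SD, n = 6) in PB mice. Alb provided 50.4% ± 2.88 of the members' counts in Con mice and Apob 23.3% ± 2.20. Per kb of transcript, Alb was highest at 21871 ± 6068 CPM per kb (SD, n = 12 FR libraries) and stood above every other member in all 12 libraries. Apoa2 (7485 ± 1598), Apoa1 (6643 ± 729) and Apoe (6008 ± 1075) came next with overlapping ranges, Apoa2 being above Apoa1 in 9 of 12 libraries and Apoa1 above Apoe in 11. Apoc1 followed at 3993 ± 818. Apoc3 (1930 ± 291), Apoh (1700 ± 183) and Apob (1635 ± 118) were close to each other, Apoc3 exceeding Apoh in 11 and Apoh exceeding Apob in 7 of 12 libraries. Apoa5 (298 ± 82.3) and Apoa4 (247 ± 45.1) were lowest, with Apoa5 the higher of the pair in 9 of 12 libraries. The longest transcript, Apob, and a short one, Apoc3, thus stood 2 ranks apart per kb.

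**Figure D1:**
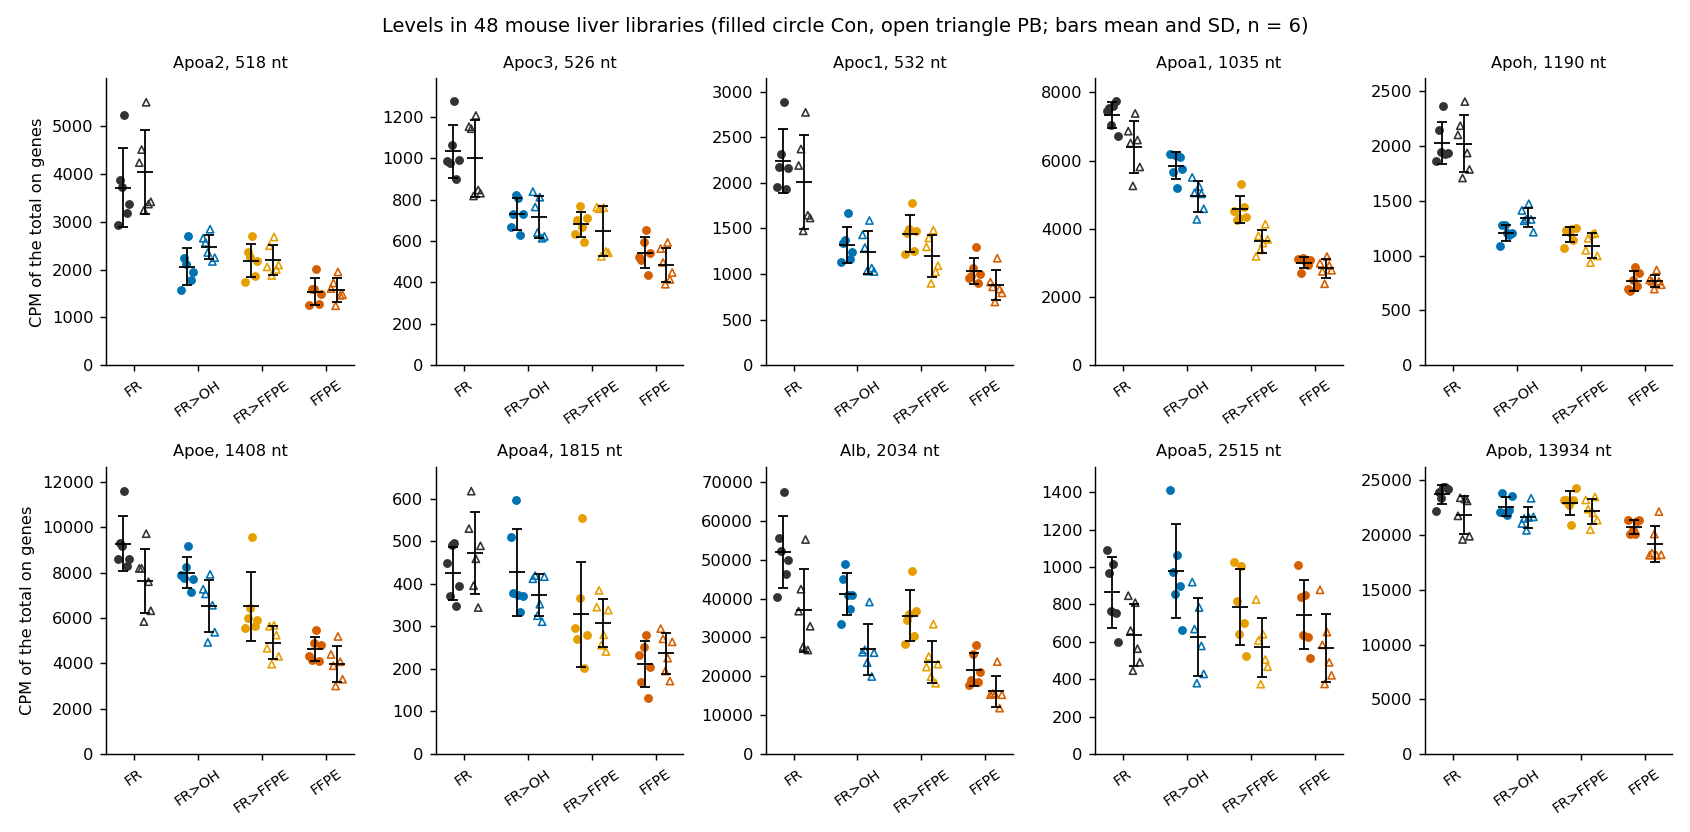
CPM of each member in the 48 mouse liver libraries, ordered by transcript length, with preparations on the x axis, filled circles for Con, open triangles for PB, and bars for mean and SD (n = 6). From Apoa2 to Alb the FFPE libraries lie below the FR libraries of the same treatment, whereas Apoa5 overlaps FR and Apob stays between 18151 and 24391 CPM in all 48 libraries.

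Direct formalin fixation was compared with freezing first. In FFPE, 9 of 10 members were lower than in FR by edgeR's quasi-likelihood test (adjusted p under 0.05), where 17.3% of all genes tested were called lower. Of these, 6 also fell by at least 2-fold (Alb, Apoa1, Apoa2, Apoa4, Apoc1 and Apoh), against 1.93% of all genes, and all 10 had a log2 fold change below 0. The share over all genes depends on the scale. By the 2-fold rule 258 of 13370 genes were lower here, 669 with TMM scaling and 3566 with total reads. The members were not counted by that rule on those 2 scales. The median of the members was -1.08 on the log2 scale, beside 0.32 for all genes tested. Members as a share of counts were 5.49% ± 0.498 (SD, n = 6) in FFPE Con and 4.67% ± 0.451 (SD, n = 6) in FFPE PB.

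Among proteins of high density lipoprotein, Apoa2 lay at 2925 to 5229 CPM (median 3539) in FR Con, against 1249 to 2009 CPM (median 1544) in FFPE Con. In PB mice it lay at 3238 to 5495 CPM (median 3825) in FR, against 1244 to 1949 CPM (median 1538) in FFPE. No FFPE library reached the lowest FR library. Apoa2 fell by 1.32 on the log2 scale (SE 0.102, adjusted p = 1.25e-15), and had -1.64 relative to the median of all genes. Apoa1 went from 6724 to 7741 CPM (median 7489) in FR Con to 2713 to 3149 CPM (median 3075) in FFPE Con, again with no overlap in either treatment. Its log2 fold change was -1.23 (SE 0.0614, adjusted p = 5.13e-22), and -1.55 relative to the median.

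Alb, the most abundant member, lay at 40511 to 67527 CPM (median 51182) in FR Con, against 17639 to 27941 CPM (median 20073) in FFPE Con. In PB mice the ranges were 26752 to 55197 CPM in FR and 11798 to 23779 CPM in FFPE. Groups of the same treatment did not overlap, although the highest FFPE Con library exceeded the lowest FR PB library. The log2 fold change was -1.23 (SE 0.127, adjusted p = 7.62e-12) and -1.55 relative to the median of all genes, as for the shorter Apoa1.

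Apoh had the largest fall among the members. It lay at 1860 to 2364 CPM (median 1941) in FR Con, against 676 to 899 CPM (median 749) in FFPE Con, and PB libraries stood at 1706 to 2402 CPM in FR against 694 to 868 CPM in FFPE. Within a mouse, FFPE kept 38.0% of the FR level on average (geometric mean, n = 12), and the log2 fold change was -1.40 (SE 0.0603, adjusted p = 6.11e-24). Only 0.314% of all genes tested fell further. Apoc1 (-1.15, SE 0.103), Apoc3 (-0.98, SE 0.0863) and Apoe (-0.97, SE 0.0985) fell as well, as did Apoa4, which kept 49.4% of its FR level, each lower in 12 of 12 mice and without overlap of FR and FFPE, with adjusted p from 2.67e-09 for Apoa4 to 5.68e-14 for Apoc3.

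In CPM of the total on genes, Apob and Apoa5 kept most of their level. Apob lay at 22152 to 24391 CPM (median 24066) in FR Con, against 20061 to 21400 CPM (median 20857) in FFPE Con. In PB mice it stood at 19594 to 23402 CPM in FR and 18151 to 22142 CPM in FFPE. The groups did not overlap in Con mice and overlapped in PB mice. Apob was lower in 11 of 12 mice (log2 fold change -0.19, SE 0.0558, adjusted p = 0.00251). With the L number as a term in a fit of FFPE and FR alone the value was -0.12 (SE 0.153, adjusted p = 0.546), whereas the other called members kept their calls in that fit. It tells L number 1 from 2 only within FFPE PB, where 4 libraries had 1 and 2 had 2. Apoa5 lay at 598 to 1089 CPM (median 865) in FR Con, against 514 to 1009 CPM (median 736) in FFPE Con, with wide overlap in both treatments. Its log2 fold change of -0.19 (SE 0.154, adjusted p = 0.272) did not pass in the unpaired fit, where the spread between mice counts as error. With the mouse as a block it did (-0.20, SE 0.0333, adjusted p = 3.6e-07), and 11 of 12 mice were lower. Both genes had -0.51 relative to the median of all genes, and with TMM scaling both were called lower, at -0.47 each. With total reads as library size, where the median of all genes was itself -0.63, both lay lower still.

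Freezing before formalin left smaller differences from FR. In FR > FFPE, 8 of 10 members were called lower (8.93% of all genes tested) and none fell by 2-fold. The same mice gave Apoh at -0.83 (SE 0.0596), Apoa2 at -0.82 (SE 0.101), Apoa1 at -0.75 (SE 0.0608), Apoc1 at -0.69 (SE 0.102), Apoc3 at -0.61 (SE 0.0858), Alb at -0.60 (SE 0.125), Apoe at -0.57 (SE 0.0979) and Apoa4 at -0.50 (SE 0.127), all on the log2 scale with adjusted p of at most 0.000718. Apoa5 had -0.15 (adjusted p = 0.408) and Apob -0.02 (adjusted p = 0.824), with Apob lower in 6 of 12 mice. With the mouse as a block Apoa5 passed here too (adjusted p = 4.61e-05). With TMM scaling Apob (-0.32) and Apoa5 (-0.46) were also called lower. Groups of Alb, Apoa4, Apoa5 and Apob overlapped with FR in both treatments, and those of Apoa1, Apoa2, Apoc3 and Apoh in neither.

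Ethanol in place of formalin gave a different order. In FR > OH, 6 of 10 members were called lower (13.3% of all genes tested). Apoa2 (-0.78, SE 0.101), Apoc1 (-0.73, SE 0.102) and Apoh (-0.67, SE 0.0594) fell furthest, followed by Apoc3 (-0.49, SE 0.0856), Alb (-0.40, SE 0.125) and Apoa1 (-0.35, SE 0.0605), with adjusted p of at most 0.00636. Apoe (-0.22, adjusted p = 0.051), Apoa4 (-0.17, adjusted p = 0.27), Apob (-0.04, adjusted p = 0.533) and Apoa5 (0.08, adjusted p = 0.696, or -0.11 with TMM scaling) did not pass. With the mouse as a block Apoe (adjusted p = 4.19e-07) and Apoa4 (adjusted p = 0.0115) passed as well. Apoe was lower in 12 of 12 mice and kept 85.9% of its FR level.

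Between the embedded preparations, which shared one extraction method, FFPE was lower than FR > FFPE for 9 of 10 members (17.4% of all genes tested). The L number was 1 or 2 in FFPE and 3 or 4 in FR > FFPE, so preparation and L number cannot be told apart here. Alb had the largest difference (-0.63, SE 0.125, adjusted p = 0.000116), then Apoh (-0.57, SE 0.0594, adjusted p = 5.84e-10), and Apob the smallest that passed (-0.17, SE 0.0558, adjusted p = 0.0147). Apoa5 differed by -0.04 (SE 0.154, adjusted p = 0.873). FR > FFPE was lower than FR > OH for 3 members (1.88% of all genes tested), namely Apoa1 (-0.40, SE 0.0606, adjusted p = 1.41e-05), Apoe (-0.35, SE 0.0977, adjusted p = 0.00764) and Apoh (-0.16, SE 0.0592, adjusted p = 0.0408). With the mouse as a block this count was 7 (4.82% of all genes), adding Alb, Apoa4, Apoa5 and Apoc3. Apoa2 (-0.04), Apoc1 (0.04) and Apob (0.03) passed in neither fit. Within a treatment FR > FFPE and FR > OH shared no L number, so fixative and L number cannot be told apart in this comparison either.

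The loss was then set against transcript length. In FFPE the log2 ratio to FR rose by 0.22 for each doubling of length (SD 0.0222 over 12 mice, range 0.194 to 0.273), and the rank correlation between length and log2 ratio was 0.588 over the 10 members. The slope was 0.157 (SD 0.0266) in FR > FFPE and 0.152 (SD 0.0237) in FR > OH, with rank correlations of 0.794 and 0.842. It was positive in each of the 12 mice in all 3 preparations. These values describe 10 genes measured in the same libraries, and no test was made. In FFPE the slope rested on the 2 longest members. Without Apob it was 0.189, and without Apob and Apoa5, a choice made after the values were seen, it was 0.0101 (SD 0.0723) and positive in 7 of 12 mice. From 518 to 2034 nt the 8 remaining members thus lay between -0.97 and -1.40, with a rank correlation with length of 0.19. In FR > OH the slope without both genes was 0.203 (SD 0.0894) and positive in 12 of 12 mice, and in FR > FFPE it was 0.0636 (SD 0.0887) and positive in 10.

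**Figure D2:**
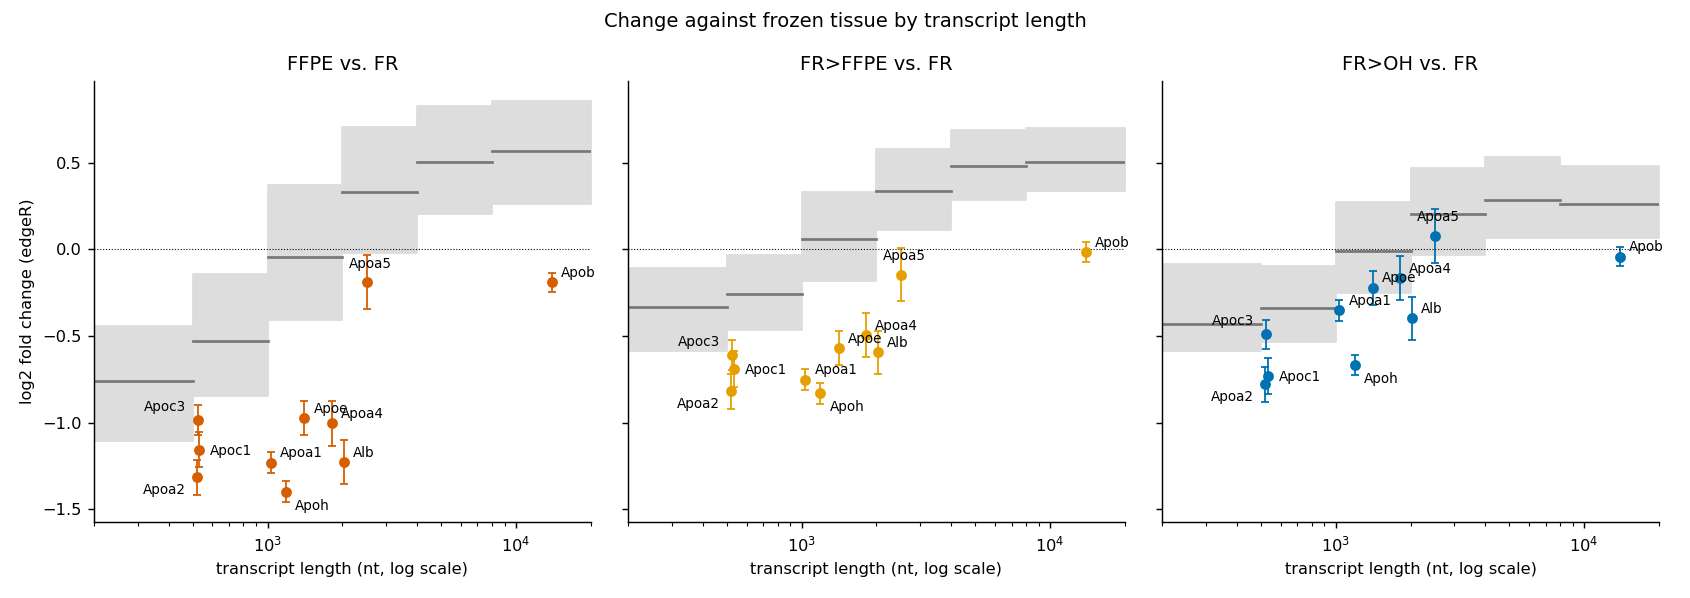
Log2 fold change vs. FR (y axis) against length of the principal transcript (x axis, log scale) for the 10 members, with SE as bars. Grey lines and bands are the median and the quartiles of all protein-coding genes tested in 6 length bins, the outer bins being drawn to the ends of the axis. In FFPE 8 members lie between -0.97 and -1.40 and Apoa5 and Apob at -0.19, and all 10 sit below the band of their length bin.

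Short transcripts in general were lower in embedded tissue. A length was found for 13100 of the 13370 genes tested. Among 617 protein-coding genes of 501 to 1000 nt the median log2 fold change in FFPE was -0.53, and among 632 genes over 8000 nt it was 0.57. In these bins 64.2% and 3.32% of genes were called lower. All 10 members were below the median of their bin. The difference was -0.46 for Apoc3, -0.63 for Apoc1 and -0.79 for Apoa2 in the bin of 501 to 1000 nt. It was -0.93 for Apoe, -0.96 for Apoa4, -1.19 for Apoa1 and -1.35 for Apoh in the next bin, -1.56 for Alb and -0.52 for Apoa5 in the bin after that, and -0.76 for Apob. Alb thus stood furthest from genes of its own length (5175 protein-coding genes of 2001 to 4000 nt, median 0.33). Apob, although it kept 87.7% of its FR level in CPM, was thus below other long genes. In FR > OH the same differences ran from -0.12 for Apoa5 to -0.66 for Apoh. GC content ordered the members little (rank correlation with the log2 ratio of 0.152 for FFPE, with 0.103 for FR > FFPE, and FR > OH at 0.261), and so did the number of exons (0.0389 in FFPE) and the mean level in FR (-0.0182 in FFPE).

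Genes of the cluster on chromosome 9 differed among themselves. Over 43.3 kb, Apoa1, Apoc3 and Apoa4 kept 42.7%, 50.5% and 49.4% of their FR level in FFPE, and Apoa5 kept 86.9% (geometric means over 12 mice). Apoc1 and Apoe on chromosome 7 kept 45.3% and 50.9%.

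The ratio of the longest to the shortest member within a library does not depend on the library size. Apob counts divided by Apoa2 counts were 4.66 to 7.68 (median 6.74) in FR Con, compared with 10.01 to 17.1 (median 13.5) in FFPE Con. In PB mice the ratio was 4.24 to 6.86 (median 5.51) in FR and 9.31 to 16.2 (median 11.8) in FFPE. It was higher than in FR in 12 of 12 mice in each embedded preparation, and FR and FFPE did not overlap. The ratio was 2.17 times the FR ratio in FFPE (1.12 on the log2 scale, SD 0.111), 1.73 times in FR > FFPE (0.79, SD 0.142) and 1.65 times in FR > OH (0.72, SD 0.0987). The exact two-sided sign-flip permutation test over 12 mice gave p = 0.000488 for each, the smallest it can give, and 0.000488 after Benjamini-Hochberg adjustment over the 3 preparations. With Alb in place of Apob the log2 ratio in FFPE changed by 0.08 (SD 0.200) and was higher in 8 of 12 mice (exact p = 0.184). It rose by 0.22 (SD 0.112) in FR > FFPE and by 0.38 (SD 0.190) in FR > OH. In both it was higher in 12 of 12 mice (exact p = 0.000488, adjusted p = 0.000732 by the same permutation test).

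**Figure D3:**
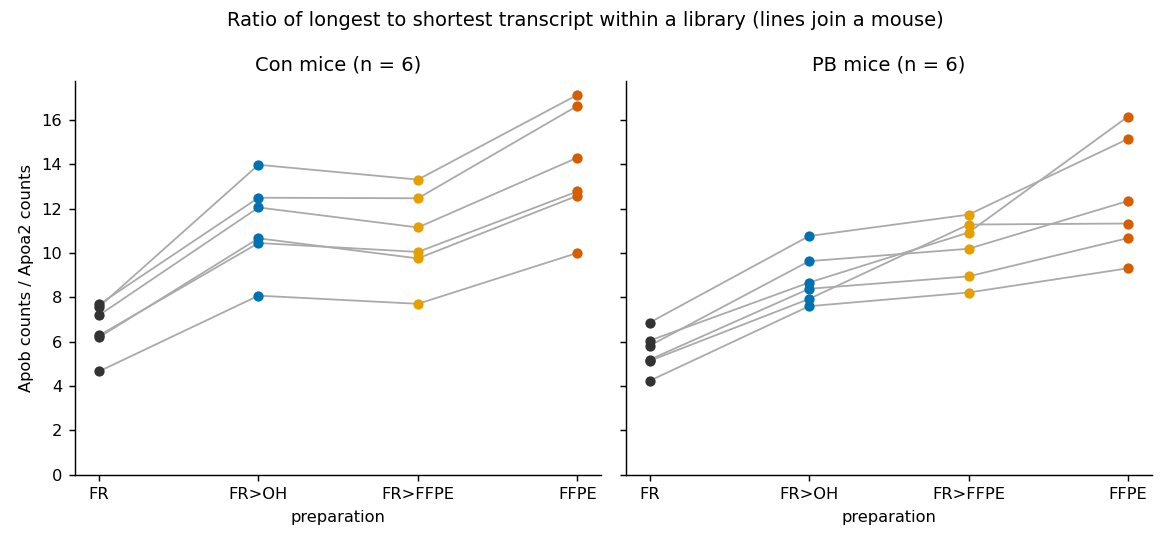
Apob counts divided by Apoa2 counts in each library (y axis) by preparation (x axis), in Con mice on the left and PB mice on the right (n = 6 each), with a line for each mouse. All 12 lines rise from FR, which lies between 4.24 and 7.68, to FFPE, which lies between 9.31 and 17.1.

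These differences changed which member held most counts. Alb had more counts than Apob in each of the 12 FR libraries, whereas Apob exceeded Alb in 9 of 12 FFPE libraries, 3 of 12 FR > FFPE libraries and 1 of 12 FR > OH libraries. The share of Apob among the members' counts was 23.3% ± 2.20 in FR Con and 38.1% ± 3.95 in FFPE Con (SD, n = 6). Per kb, Alb was still highest in all 12 FFPE libraries (9300 ± 2381 CPM per kb). Apob moved from rank 8 per kb in FR to rank 6 in each embedded preparation, passing Apoc3 and Apoh, which it exceeded in 12 of 12 FFPE libraries.

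Mice that stood out in FR often stood out in FFPE. Of 20 sets (10 members in Con and in PB mice), the mouse highest in FR was also highest in FFPE for 16, FR > FFPE for 12 and FR > OH for 11. The members were read in the same mice, so the sets are not separate observations, and no share over all genes was computed. In FR PB mice Apob varied least between mice and Alb and Apoa5 most, with coefficients of variation of 7.94%, 28.9% and 26.1%. In FR Con mice Apob again varied least (3.65%), Apoa2 (22.1%) and Apoa5 (21.8%) varied most, and Alb had 17.7%.

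PB was compared with Con in each preparation. In FR no member passed (2.6% of all genes tested were called lower), although 4 of 10 had an unadjusted p under 0.05, as did 2806 of the 13370 genes tested. Alb had 36940 ± 10680 CPM in PB and 52031 ± 9189 CPM in Con mice (SD, n = 6), and its log2 fold change was -0.49 (SE 0.177, adjusted p = 0.0745). DESeq2 called 1 member lower (Alb) and edgeR on totals without genes over 1% of a library called 2 (Alb and Apoa1). The ranges of Alb overlapped between PB and Con. In FFPE no member passed either (1.98% of all genes lower), and DESeq2 and limma called none. There 1 member had an unadjusted p under 0.05, as did 2567 of the 13370 genes tested. Alb differed by -0.42 (SE 0.177, adjusted p = 0.165) and Apoa5 by -0.40 (SE 0.218, adjusted p = 0.322).

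Alb passed in the 2 preparations that were frozen before fixation. In FR > FFPE Alb (-0.59, SE 0.177, adjusted p = 0.0313) and Apoa1 (-0.33, SE 0.0856, adjusted p = 0.00886) were lower with PB (0.987% of all genes tested). There the L number was 3 for all Con and 4 for all PB libraries, so PB and L number cannot be told apart. In FR > OH Alb (-0.61, SE 0.177, adjusted p = 0.0168) and Apoa5 (-0.64, SE 0.219, adjusted p = 0.0444) were lower (3.78% of all genes tested). The L number in FR > OH was 5 for all PB libraries, and 4 for 3 and 5 for 3 of the Con libraries. Alb in FR > OH stood at 33522 to 48807 CPM in Con and 19941 to 39125 CPM in PB mice, which overlapped. Without mouse 21C, a Con mouse with high values, Alb in FR > FFPE had -0.49 (adjusted p = 0.0974) and Apoa5 in FR > OH had -0.62 (adjusted p = 0.0796), and neither passed. With total reads as library size Alb passed in neither preparation (adjusted p = 0.0705 and 0.0512). The difference between the PB effect in a preparation and in FR was itself tested. Of the 10 members 0 passed with edgeR for any embedded preparation, where 0% of the 13370 genes passed, 0 had an unadjusted p under 0.05, and DESeq2 called 0. With the mouse as a block, which compares within mice, 0 of 10 passed as well, in FFPE (0.00748% of all genes), FR > FFPE (0%) and FR > OH (0.277%). In that fit 4 members had an unadjusted p under 0.05 in FR > OH (Apoa2, Apoa4, Apoa5 and Apoh), the smallest adjusted p being 0.156 for Apoa5, and 0 did in FFPE or FR > FFPE. Of all 13370 genes, 1116 had an unadjusted p under 0.05 in FR > OH, 1143 in FFPE and 1164 in FR > FFPE. Without the block the largest of these differences was -0.35 (SE 0.254) for Apoa4 in FR > OH. Passing in one preparation and not in another is therefore not shown to be a difference between them.

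**Figure D4:**
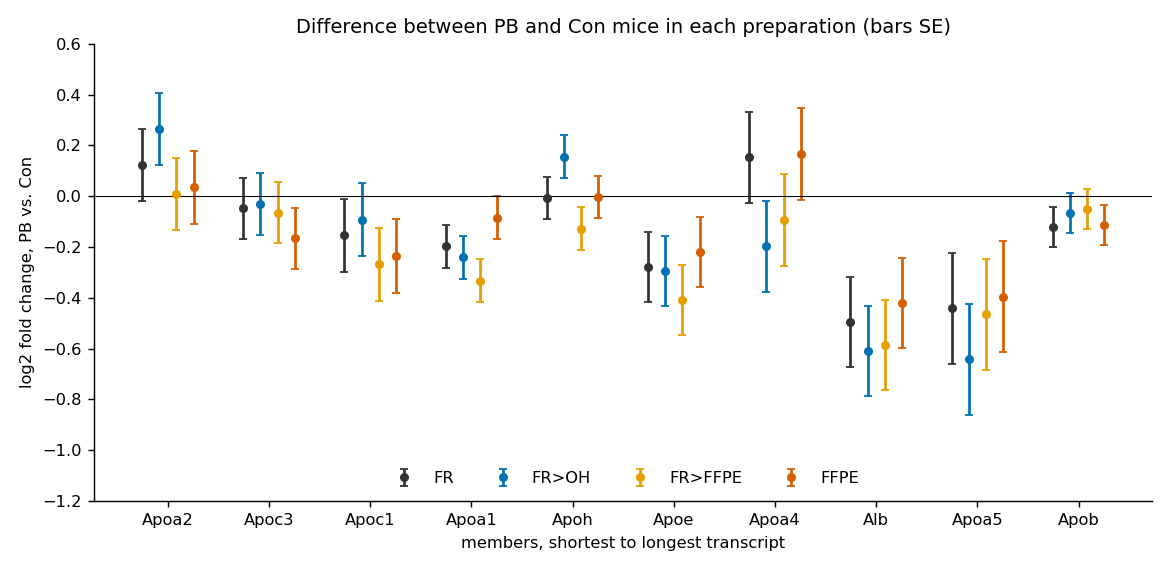
Log2 fold change of PB vs. Con (y axis) for each member (x axis, shortest to longest transcript) in 4 preparations, with SE as bars (n = 6 per group). Alb and Apoa5 lie below 0 in all 4 preparations, from -0.42 to -0.61 and from -0.40 to -0.64, and Apoh lies near 0 in FR and FFPE.

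Other genes of lipoprotein assembly, secretion, remodelling and uptake were described from a list of 34 genes fixed by role. In FFPE, 16 of the 33 tested were called lower and 8 higher (17.3% and 53% of all genes), with a median log2 fold change of -0.21. Those that fell included Apom, which carries sphingosine 1-phosphate on high density lipoprotein (-1.17, SE 0.0762), and Apoc4, a small apolipoprotein (-0.94, SE 0.0951). Those that rose included the receptor Lrp10 (0.71, SE 0.0563) and the large receptor Lrp1 (0.55, SE 0.0733). In FR > FFPE 13 were called lower and 9 higher (8.93% and 56.5% of all genes), and in FR > OH 9 lower and 9 higher (13.3% and 41.7%). These counts depend on the scale. With TMM scaling 4 genes were called higher in FFPE and 2 in FR > FFPE, and with total reads 0 in either. Of all 13370 genes, 4561 and 3633 were called higher with TMM scaling, and 877 and 2734 with total reads. Genes of the list called lower became 31 in FFPE with total reads, 21 in FR > FFPE with TMM scaling and 22 with total reads, and 15 and 20 in FR > OH. In the same order 9451, 3364, 3913, 3480 and 5025 of all 13370 genes were called lower. In FR 4 genes of the list were called lower with PB and 4 higher (2.6% and 5.85% of all genes), and Angptl4, an inhibitor of lipoprotein lipase, was the one that changed by at least 2-fold (-1.30, SE 0.381, adjusted p = 0.0228).

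Other plasma carriers were lower in FFPE. Of 14 carrier genes 13 were called lower (17.3% of all genes), with a median of -0.88, and the retinol carrier Rbp4 (0.09, SE 0.109, adjusted p = 0.449) did not pass. The heme carrier Hpx (-1.37, SE 0.354), Ambp, which gives rise to alpha1-microglobulin (-1.28, SE 0.167), and the acute phase carrier Orm1 (-1.25, SE 0.384) fell furthest. In FR > FFPE 9 carriers were called lower (8.93% of all genes). In FR > OH 5 were lower and 1 higher (13.3% and 41.7%), and with TMM scaling or DESeq2 9 were lower and 0 higher, as were 11 and 0 with total reads. Over all genes TMM scaling called 3480 of 13370 lower there, DESeq2 3596 of 13369 and total reads 5025 of 13370. Those called higher numbered 3365, 3389 and 2081.

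The genes whose levels ran most like a member's over the 48 libraries were found by Pearson's r of log2(CPM + 1) among 7952 genes with a mean of at least 10 CPM. The libraries come from 12 mice and share the effect of preparation, so r is a description. For Alb these were Gm5424 (r of 0.948), Itih2 (0.912) and the member Apoe (0.908). For Apoa4 they were Samm50 (0.82), Rarres2 (0.816) and Acp5 (0.814), and for Apob they included Gm4788 (0.754) and Ddx3y (0.729).

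Markers of other cells were read beside these results. The summed level of 6 hepatocyte markers was 8547 to 11740 CPM in FR and 6956 to 9296 CPM in FFPE libraries. Of 5 Kupffer cell markers, macrophages being a further source of Apoe, it was 209 to 515 CPM in FR and 135 to 368 CPM in FFPE. Small intestine, which also makes Apob and Apoa4, was read from 4 markers (Fabp2, Vil1, Lct and Sis). They summed to 12.1 to 56.1 CPM over the libraries. Sis was at 0 in all libraries of 7 of the 8 groups. Lct was so in FFPE PB alone, and Fabp2 and Vil1 were so in no group. Pancreas markers summed to at most 0.902 CPM. Among the remaining lists, the median sum in FR Con and FFPE Con was 396 and 197 CPM for erythroid markers, 407 and 289 CPM for stellate cell and vessel wall markers, 290.04 and 326 CPM for endothelial markers, 8.33 and 13.5 CPM for cholangiocyte markers and 16.8 and 14.1 CPM for leukocyte markers. The part of cell content in the falls was not tested.

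Rat liver gave a second look with probes. TempO-Seq anneals a pair of 25 nt oligos to each target, so that only a short stretch of the transcript has to be intact. Livers of male F344 rats given vehicle were measured as FR, FR > FFPE and FFPE (n = 6 libraries each), with 3040915 to 3970187 counts per FR library and 139475 to 889128 per FFPE library. Of the 10 genes 7 were measured, and Apoa4, Apoa5 and Apob were listed at 0 in every library. The 7 genes held 28.3% ± 2.11 (SD, n = 6) of counts in FR, 27.1% ± 2.61 in FR > FFPE and 22.3% ± 2.47 in FFPE. Counts of Alb were whole multiples of 9 in all 18 libraries, and those of Apoa1 and Apoh of 7.

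Members split into 2 directions in rat liver. Alb lay at 136582 to 177008 CPM (median 159477) in FR, against 69432 to 122156 CPM (median 92066) in FFPE, without overlap. Apoh lay at 25922 to 30629 CPM in FR, against 14950 to 19066 CPM in FFPE, also without overlap. Apoe rose from 6985 to 10153 CPM (median 8612) in FR to 33335 to 45314 CPM (median 41391) in FFPE, and Apoc3 from 232 to 420 CPM to 1172 to 1482 CPM, both with no overlap. With TMM scaling, 5 of 7 were called lower in FFPE (Alb, Apoa1, Apoa2, Apoc1 and Apoh, 33.5% of all genes) and Apoe was called higher (46.2%), and in FR > FFPE the same 5 lower (27.5%) and Apoe and Apoc3 higher (43.8%). With the panel total as library size, 3 were lower in FFPE (Alb, Apoa1 and Apoh) and 2 higher (Apoe and Apoc3), where 6.97% of all genes were called lower and 77.4% higher, and Apoc1 turned to 0.08 (adjusted p = 0.449) and Apoa2 to -0.06 (adjusted p = 0.815). In FR > FFPE that scale left Apoh alone called lower (11.8% of all genes). The median of all genes moved from 0.35 to 1.97 between these scales. Relative to it, Alb stood at -2.71 with TMM scaling and -2.76 with the panel total, Apoh at -2.73 and -2.74, Apoe at 0.29 and 0.26, and Apoc3 at 0.07 and 0.05. On both scales Apoe and Apoc3 were level with or above the median gene and the other 5 below it. In mouse liver Apoe and Apoc3 had log2 fold changes of -0.97 and -0.98. The assays, species and scales differ, and no test between them was made.

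**Figure D5:**
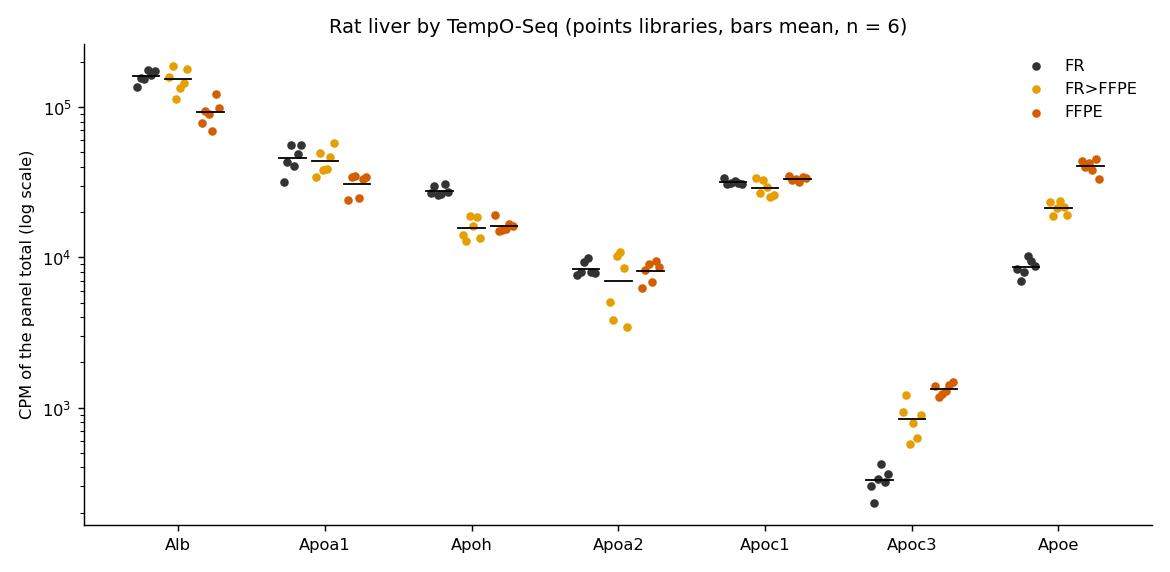
CPM of the panel total (y axis, log scale) of the 7 members measured in rat liver by TempO-Seq (x axis) in FR, FR > FFPE and FFPE, with a point for each library and a bar for the mean (n = 6). Alb and Apoh lie lower in FFPE than in FR without overlap, Apoa1, Apoa2 and Apoc1 overlap on this scale, and Apoc3 and Apoe rise through FR > FFPE to FFPE.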

How the data were processed

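The mouse table holds estimated counts per gene, which the authors made with STAR (2.5.3a) on mm10 with RefSeq genes and an expectation-maximization step in Partek Flow from ribosome-depleted, stranded libraries, together with the authors' log2 CPM values. Of the estimated counts 92.2% were whole (tolerance 1e-09). They were rounded here, and genes with a geometric mean over 1 (offset 1e-04) were tested with edgeR (4.0.16, quasi-likelihood test), with the total on genes as library size, 8 group means, contrasts averaged over Con and PB, and Benjamini-Hochberg adjustment over 13370 genes. A call is an adjusted p under 0.05. The deposited counts of rat liver came from TempO-Seq and were tested with edgeR, TMM scaling and 3 group means. Replicates were separate mice, and same-mouse libraries deviated together in 72 of 72 pairs (median r = 0.699), so the mouse as a block was an alternative. Other alternatives used DESeq2 (1.42.0), limma (3.58.1) on the log2 CPM, other library sizes and filters, and other lengths. Lengths came from GENCODE M21. The genes named beyond the members were, per list, up to 3 called genes with the largest fall and rise in FFPE, any gene changed by 2-fold with PB in FR, and Rbp4, added once its values were known. Some genes that this rule or the search for like genes names are not reported here. The scripts were tested on simulated data. Members, lists and tests were chosen with earlier results of these data known.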

Additional observations from a re-analysis of the deposited data

Results flagged for a closer look

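Of 109 groups of 6 libraries tested for a library far from the others, 5 stood out, where chance gives about 1 in 20. Alb was far above the other PB mice in mouse 20D, at 23779 CPM in FFPE (group median 15347) and 39125 CPM in FR > OH (group median 26130). In Con mouse 21C, Apoa1 in FR > FFPE was 5324 CPM (group median 4444), and Apoe was 11627 CPM in FR (group median 8888) and 9566 CPM in FR > FFPE (group median 5948).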

How the results depend on the processing

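Of 783 alternative values, 665 kept their direction and side of the threshold or stayed close, 9 lost a call, 38 gained one, 13 turned direction and 58 moved. The 665 include 3 that repeat the main value of the longest to shortest ratio. They also include 9 slopes, rank correlations and ratios on the authors' log2 CPM, where library size cancels. Neither kind could differ from the main value beyond rounding. The causes were not tested unless the alternative's construction shows them. With the mouse as a replicate block, members called lower in FR > FFPE vs. FR > OH numbered 7 (DESeq2 7, TMM 5), and no call was lost. With a 2-fold rule the members called were 0 in FR > FFPE and FR > OH vs. FR, between embedded preparations, and for PB in FR > FFPE and FR > OH. For PB in FR, DESeq2 called 1 and totals without genes over 1% called 2. For PB in FR > FFPE, total reads and limma called 1 each. For PB in FR > OH, DESeq2 called 4, and total reads, limma and no filter 1 each. Lipoprotein genes called lower in FFPE numbered 31 with total reads, and those called higher 4 with TMM, 4 with DESeq2 and 0 with total reads. In FR > FFPE 21, 21 and 22 were lower and 2, 2 and 0 higher with these settings. In FR > OH 15, 15 and 20 were lower, and 5 higher with total reads. Carriers in FR > OH were 9, 9 and 11 lower and 0 higher with each. Over all genes DESeq2 called 4536 higher in FFPE, 3469 lower and 3637 higher in FR > FFPE, and 3596 lower in FR > OH. Calls over all genes with TMM scaling and total reads stand beside these lists above. Apob in FR > FFPE turned to 0.00148 without mouse 21C and 0.0204 in PB mice alone, and Apoa4 in FR > OH to 0.00726 in Con mice alone. Apoa5 in FR > OH turned to -0.11 with TMM, -0.11 with DESeq2, -0.26 with total reads, -0.27 with limma and -0.0228 in PB mice alone. For PB, Apoh turned to 0.0235 in FR with total reads and 0.0210 with limma, and to 0.0431 and 0.0564 in FFPE. In rat FFPE the plain total gave 3 lower and 2 higher (DESeq2 2 higher) and turned Apoc1 to 0.0764, and in rat FR > FFPE it gave 1 lower. The length slope in FFPE was 0.244 over the union of exons, 0.154 over coding length, 0.189 without Apob and 0.0101 without Apob and Apoa5, with rank correlations of 0.333 for coding length, 0.433 without Apob, 0.19 without both and 0.418 in Con mice alone. For coding length and without both genes, FR > FFPE had slopes of 0.117 and 0.0636 and rank correlations of 0.624 and 0.595, and FR > OH slopes of 0.115 and 0.203 and rank correlations of 0.685 and 0.714. Without Apob the FR > OH slope was 0.251. With Alb as the long member the FFPE log2 ratio was 0.0832 and lost its call.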

Other observations

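In lung of male WKY rats Apoe was the most abundant member, from 420 to 609 CPM in 5 of the 6 FR libraries. It lay at 1455 to 2752 CPM (median 1577) in the 6 libraries from lungs left in formalin for 1 year before embedding. In the 6 FR > FFPE lung libraries it lay at 1217 to 4039 CPM (median 1566). One FR lung library held 12 counts in all and none on these genes. Alb reached at most 1191 CPM in lung. Few counts were listed for these genes in AML12 cells, an established mouse hepatocyte line. The cells had been given vehicle or formalin at 0.006%, 0.03% or 0.1% for 10 minutes (n = 3 libraries each). Over these 12 libraries Alb, Apoa2, Apoa4, Apob, Apoc1 and Apoh were listed at 0, and Apoe reached at most 42 counts. Since Apoa4, Apoa5 and Apob were also listed at 0 in rat liver with this assay, a 0 does not show that a transcript is absent.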
